A study of Homo sapiens with 2 samples.

Results

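The genes described here are 10 interferon-induced genes, namely the IFIT family genes IFIT1, IFIT2, IFIT3 and IFIT5, the ubiquitin-like modifier gene ISG15 with its protease gene USP18, the exonuclease gene ISG20, the DNA sensor gene IFI16, and the growth-restricting paralogues SAMD9 and SAMD9L. They were measured in H1299 cells, an established human line from a non-small cell lung carcinoma without p53 of its own. One culture was H1299 with p53, and the other was the H1299 negative control. The way in which p53 was introduced, its duration and the make-up of the negative control are not stated in the labels. Each group had 1 Affymetrix array, hybridised with total RNA. Members were the probe sets whose single platform gene symbol was one of these names, which gave 10 probe sets for 10 genes among 33297 probe sets and 18417 named genes. The set was chosen for the opposite differences of IFIT3 and SAMD9 on these same arrays, so all values of the members are a description. Without replicates, no test was possible and no replicate error can be given.

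Cells that sense viral nucleic acid make interferons, which bind surface receptors and signal through JAK kinases to a complex of STAT proteins and IRF9. That complex binds a DNA element, the interferon-stimulated response element, before a large set of genes, among them those described here. The IFIT proteins are built of tetratricopeptide repeats and bind foreign RNA or one another, ISG15 is joined to other proteins as ubiquitin is, and SAMD9 and SAMD9L restrict viral replication and cell growth. Some of these genes can also be turned on without interferon, by IRF1 or IRF3.

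The promoter sequences are shown because the genes with the most opposite differences, IFIT3 and SAMD9, carry the same element. RefSeq windows on GRCh38.p14, from 250 bases before to 50 after a gene start, were found for 8 of the 10 genes. They were searched on both strands for GAAANNGAAA, the core of the interferon-stimulated response element, which reads TTTCNNTTTC on the other strand. A match was present in 7 of the 10 windows of these genes, which belong to 6 of the 8, against 3.57% of all 35116 promoter windows. Each stretch below ends at or before the gene start, and capitals mark the matches, some of which overlap.
IFIT3, first start (chr10:89327821-89327904, + strand): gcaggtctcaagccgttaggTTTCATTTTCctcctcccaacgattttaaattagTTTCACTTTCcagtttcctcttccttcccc
IFIT3, second start (chr10:89332415-89332507, + strand): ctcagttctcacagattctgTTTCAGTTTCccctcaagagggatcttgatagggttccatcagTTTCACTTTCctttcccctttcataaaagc
IFIT1 (chr10:89392487-89392549, + strand): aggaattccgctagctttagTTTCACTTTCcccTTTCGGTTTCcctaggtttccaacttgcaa
IFIT5 (chr10:89414503-89414567, + strand): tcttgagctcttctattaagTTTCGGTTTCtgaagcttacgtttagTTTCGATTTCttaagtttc
ISG15 (chr1:1013364-1013419, + strand): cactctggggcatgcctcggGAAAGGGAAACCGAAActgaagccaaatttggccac
ISG20 (chr15:88638927-88638976, + strand): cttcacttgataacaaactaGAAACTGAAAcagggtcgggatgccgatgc
SAMD9 (chr7:93118086-93118135, - strand): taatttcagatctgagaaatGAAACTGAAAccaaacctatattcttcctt

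The window of IFIT5 held 1 further match, past the printed stretch. No match lay in the windows of IFI16, which has 2 listed starts, or of SAMD9L. The same windows were searched for the p53 consensus site, a pair of half-sites with a spacer of at most 13 bases. No member's window held a full site, against 0.0285% of all promoters. An exact match that rare is likely to be absent from any 10 windows, so its absence does not show that these genes lack p53 sites. A single half-site was present at ISG15 and at the second IFIT3 start, and 6.63% of all promoters held at least 1. A match is a run of letters and does not show that a factor binds there.

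Of the 10 genes, 4 had at least 2-fold higher values with p53 (IFIT3, IFI16, IFIT1 and ISG15), 1 was at least 2-fold lower (SAMD9), and 5 were neither. Over all named genes, 5.22% were at least 2-fold higher and 3.7% at least 2-fold lower by the same rule of size. Because the set was chosen on this contrast, nothing is read from the 4 and the 1 against those shares. Each difference is the log2 value with p53 minus the log2 value of the negative control. Differences ran from -1.35 to 3.51, with a median of 0.27. The median over all named genes was 0.00, which equal pairs help to fix. At 1.5-fold the counts were again 4 and 1, where 9.4% of all named genes were higher and 10.1% lower. At 3-fold they were 3 and 0, where 2.47% were higher and 0.956% lower. Among genes with at least 1 array no lower than the median of all probe sets, 8.21% were at least 2-fold higher and 5.79% at least 2-fold lower. In RNA of a whole culture, more transcript per cell and more cells that make it cannot be told apart.

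**Figure D1:**
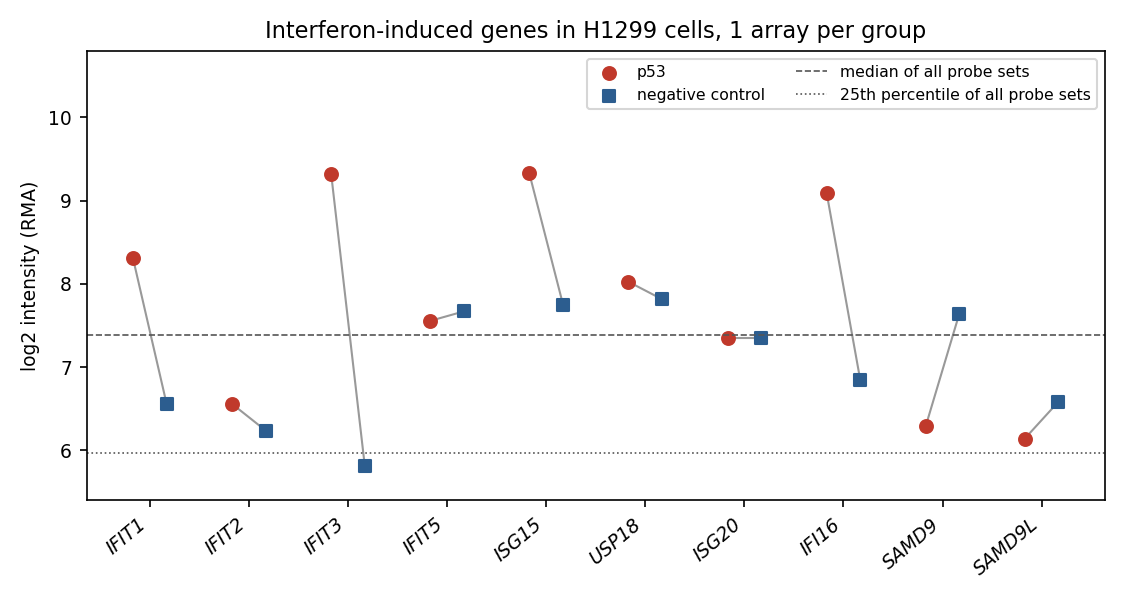
Log2 intensity of each of the 10 genes in the p53 array (circles, left) and the negative control array (squares, right), 1 array each, with dashed and dotted lines at the median and 25th percentile over all probe sets. IFIT3 lies at 9.32 with p53 and below the 25th percentile in the control, while SAMD9 lies at 6.29 with p53 and at 7.64 in the control.

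The IFIT family was not higher as a whole. IFIT3, whose protein binds and stabilises IFIT1, read 9.32 in the p53 array, against 5.81 in the negative control array (log2 intensity), an 11.4-fold difference. This was the rank 35 difference from the top among 18417 genes. The control value was under 5.97, the level below which 25% of probe set values fall, where an array separates signal from background poorly. Taken from that level, the difference was 10.2-fold. IFIT1, which binds viral RNA whose cap lacks a methyl group, read 8.31 in the p53 array and 6.56 in the control array, a 3.37-fold difference. IFIT2, a family member with a pro-apoptotic role, read 6.56 in the p53 array and 6.24 in the control array, a difference of 0.32 on the log2 scale with both values below the median of all probe sets (7.38). IFIT5, which binds RNA with a free triphosphate end, read 7.56 in the p53 array and 7.67 in the control array, a difference of -0.11. Thus the family split into a pair of higher genes and a pair that differed by less than 1.5-fold.

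ISG15 was at least 2-fold higher with p53, and its protease gene USP18 was read by a probe set of its own and by one shared with a pseudogene. ISG15 read 9.33 in the p53 array, against 7.75 in the negative control array (log2 intensity), a 2.98-fold difference. USP18 encodes the enzyme that removes ISG15 from proteins and also restrains signalling at the interferon receptor. Its own probe set read 8.03 in the p53 array and 7.82 in the control array, a difference of 0.21. A further probe set, which the annotation gives to both USP18 and its pseudogene USP41P, read 9.71 in the p53 array and 8.71 in the control array, a difference of 0.999, and was not used because it cannot be assigned to 1 gene. Of the 5 measured genes that conjugate ISG15 to proteins, 1 passed 2-fold upwards and 0 downwards, against 5.22% and 3.7% of all named genes. That gene was ARIH1, a ubiquitin ligase, which read 11.63 in the p53 array and 10.35 in the control array, a 2.43-fold difference. The activating enzyme gene UBA7 had identical values in the 2 arrays, below the median. The conjugating enzyme gene UBE2L6 differed by 0.07, the ligase gene HERC5 by 0.17 and TRIM25 by -0.06, each on the log2 scale.

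IFI16 encodes a nuclear sensor of DNA that also binds p53. It read 9.09 in the p53 array, against 6.84 in the negative control array (log2 intensity), a 4.76-fold difference, which was rank 179 from the top. After IFIT3 it was the largest difference of the 10. MNDA, PYHIN1 and AIM2, relatives that lie beside IFI16 on chromosome 1, each had identical values in the 2 arrays, and all 3 lay below the 25th percentile, so these probe sets could not show whether the genes differed.

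ISG20, an exonuclease gene that degrades single-stranded RNA, was listed at exactly the same value in both arrays, 7.35. Equal values were common, in 35.3% of named genes, which is unusual for separately hybridised arrays. Neither the labels nor the values show its cause, so an equal pair is not a measure of how precisely the 2 cultures matched, and a median of 0.00 over a list is not one either. Its relative AEN, an apoptosis-enhancing nuclease gene known as a p53 target and next to ISG20 among the named protein genes on chromosome 15, read 10.37 in the p53 array and 9.40 in the control array, a difference of 0.97, just under 2-fold. ISG20L2, a nucleolar relative, read 9.40 in the p53 array and 10.42 in the control array, a 2.04-fold lower level with p53. Among the 7 measured relatives of the members, ISG20L2 was the 1 past 2-fold, and 4 were listed as equal. Over all named genes, 5.22% were at least 2-fold higher and 3.7% at least 2-fold lower.

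SAMD9 and SAMD9L lie side by side on chromosome 7 and encode related proteins that shut down translation and slow growth. SAMD9 read 6.29 in the p53 array, against 7.64 in the negative control array (log2 intensity), a 2.56-fold lower level with p53 and rank 281 from the bottom. SAMD9L read 6.14 in the p53 array and 6.59 in the control array, a difference of -0.44, with both values below the median. The 2 paralogues thus had the same sign and differed from each other by 0.91. The difference of IFIT3 exceeded that of SAMD9 by 4.87 on the log2 scale, which is the contrast the set was chosen for.

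**Figure D2:**
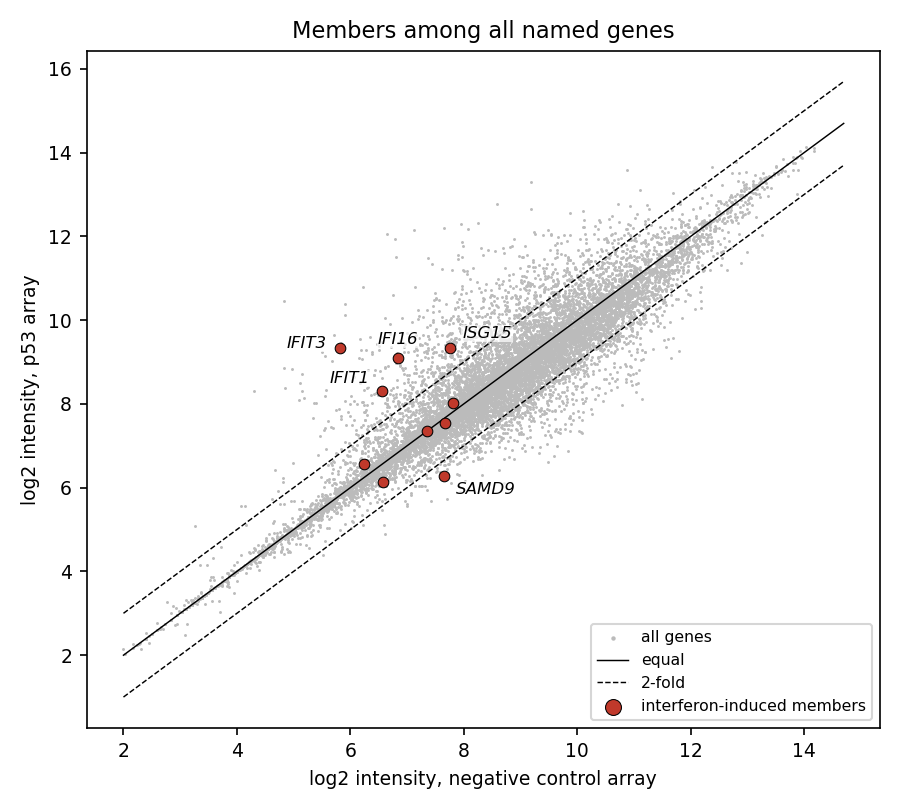
Log2 intensity in the p53 array (vertical axis) against the negative control array (horizontal axis) for all 18417 named genes (grey) and the 10 interferon-induced genes (red), with lines at equality and at 2-fold. IFIT3, IFI16, IFIT1 and ISG15 lie above the upper 2-fold line, SAMD9 lies below the lower one, and the other 5 lie between them.

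Low signal bears on several of these genes. In 7 of the 10, at least 1 array reached the median of all probe sets, and IFIT2, ISG20 and SAMD9L were below it in both. IFIT1, IFIT3 and IFI16 reached it in the p53 array alone, and SAMD9 in the control array alone. ISG15, IFIT5 and USP18 reached it in both arrays. Of the genes at least 2-fold different, ISG15 was therefore the one with a signal above the median in both cultures. A spread between probe sets was taken from genes with a pair of them, each with at least 1 array at or above the median. Pairs with equal differences were left out, which left 283 genes. Over these, a robust standard deviation of a probe set's difference, from the median absolute deviation, was 0.104. It holds no variation between cultures, and no probe sets below the median in both arrays, as those of IFIT2, ISG20 and SAMD9L were.

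Genes upstream of the interferon response were set beside the members. None of 16 measured interferon genes was at least 2-fold different. Of these 16, 15 were below the median in both arrays and 11 were listed at equal values, with IFNB1, the interferon-beta gene, at 4.43 with p53 and 4.46 in the control. The exception was IFNL3, an interferon-lambda gene, listed at 9.51 in both arrays. The interferon-alpha genes are near-identical copies, so a probe set may respond to several of them.

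None of the 6 receptor genes, the 4 measured genes of JAK kinases and their transcription complex, or the 6 negative regulators of that pathway was 2-fold different. The largest receptor difference was that of IL10RB, a shared chain of the interferon-lambda receptor, at 0.74 on the log2 scale, followed by IFNGR2 at -0.44. JAK2 had a difference of -0.68, TYK2 of 0.14, JAK1 of -0.11 and IRF9 of 0.00. Of the negative regulators, PTPN11 differed by -0.38, PTPN2 by -0.30, PIAS1 by -0.15 and SOCS1 by 0.06. PTPN6 differed by 0.32 with both values below the median, and SOCS3 was listed at equal values. No p53 minus control difference in these 3 groups exceeded 0.74 in size.

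Of 13 measured genes of nucleic acid sensing and interferon regulatory factors, 4 had at least 2-fold higher values with p53 (30.8%), 0 had 2-fold lower values, and the median difference was 0.31. Over all named genes the shares were 5.22% and 3.7%. In 12 of the 13 at least 1 array reached the median of all probe sets, and over all such genes the shares were 8.21% and 5.79%. This list was chosen with earlier results of these data known, so nothing is read from its 4 and 0 against those shares. IRF1, a transcription factor that binds the same response element, read 10.33 in the p53 array, against 7.45 in the negative control array, a 7.34-fold difference. STING1, the adaptor of cytosolic DNA sensing, was 2.92-fold higher. IFIH1 and TLR3, both sensors of double-stranded RNA, were 2.45-fold and 2.40-fold higher.

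Other interferon-induced genes were mixed. Of 48 measured, 5 were at least 2-fold higher with p53 (10.4%, against 5.22% of all named genes), 2 were at least 2-fold lower (4.17%, against 3.7%) and 41 were neither. Of the 48, 22 lay below the median in both arrays, where a difference is poorly measured. In the other 26 at least 1 array reached it, and these held all of the 5 and the 2. Over all named genes at that level, 8.21% were at least 2-fold higher and 5.79% at least 2-fold lower. This list too was chosen with earlier results known, so nothing is read from its counts against any of these shares. The rest of the 26 were within 2-fold. Examples, picked after their values were seen, are IFI6, at 9.96 with p53 and 9.80 in the control, and IFITM3, at 11.14 and 11.05. Others of the 26 differed more, such as NMI at -0.72, IFI35 at 0.55 and PARP12 at -0.51 on the log2 scale. The median difference of the 48 was 0.00, which 16 equal pairs help to fix. TRIM22, an antiviral ubiquitin ligase gene, read 7.89 in the p53 array and 5.79 in the control array, a 4.27-fold difference from a control value under the 25th percentile. IFI30, a lysosomal thiol reductase gene, was 3.95-fold higher, ZNFX1, an RNA helicase gene, 3.57-fold, PML, the organiser of nuclear bodies, 2.78-fold, and SP110, another nuclear body gene, 2.34-fold. PLSCR1, a phospholipid scramblase gene, was 2.33-fold lower with p53, and PNPT1, a mitochondrial RNA-degrading enzyme gene, 2.30-fold lower. MX1, OAS1, IFI44L and RSAD2, widely used markers of an interferon response that were picked after their values were seen, lay below the median in both arrays. MX1 read 6.34 in the p53 array and 6.25 in the control array, and OAS1 read 7.36 in the p53 array and 7.03 in the control array. IFI44L, at 4.35 with p53 and 4.46 in the control, and RSAD2, at 4.97 in both, were under the 25th percentile. At such levels little can be read from these 4 differences.

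**Figure D3:**
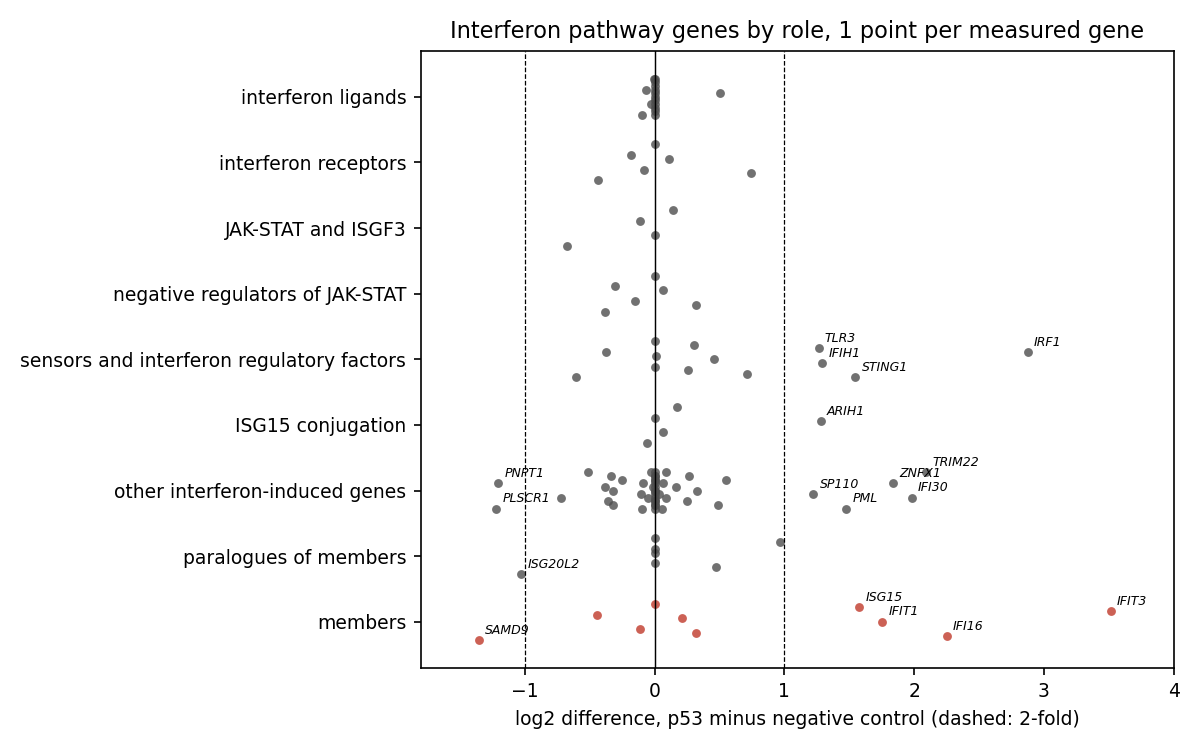
Difference in log2 intensity, p53 minus negative control (horizontal axis), for each measured gene of 9 groups ordered by role, 1 point per gene, with names at 2-fold or more. Points of ligands, receptors, JAK-STAT genes and their negative regulators lie within 1 of zero, while sensors and regulatory factors, other interferon-induced genes and the 10 members reach beyond it.

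The positions of the genes were examined next, in the gene order of GRCh38.p14 without coordinates, since the labels name no build for the files. The 4 IFIT genes lie together on chromosome 10 with IFIT1B between them. IFIT1B had the identical value of 5.56 in each array. Of the 11 other named genes within 5 places of the cluster or inside it, 4 passed 2-fold upwards with p53 and 0 downwards. Over all named genes the shares were 5.22% and 3.7%. ACTA2, the smooth muscle actin gene, read 11.68 in the p53 array, against 8.43 in the negative control array, a difference of 3.25. FAS, a death receptor gene known as a p53 target, read 10.75 in the p53 array and 8.99 in the control array, a difference of 1.76. On the other side, PANK1, a gene of coenzyme A synthesis, differed by 2.87 and the microRNA gene MIR107 by 2.07. The nearest named genes by start position differed less, with LIPA at -0.13 and SLC16A12 at 0.90. SLC16A12 lay below the median of all probe sets in both arrays. In the RefSeq table FAS overlaps ACTA2, MIR107 lies within PANK1, and the listed span of LIPA covers IFIT2, IFIT3 and IFIT1, so such neighbours may not be separate measurements.

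None of the 10 neighbours of SAMD9 and SAMD9L was 2-fold different. Their differences ran from -0.66 for CDK6, a cell cycle kinase gene, to 0.47 for ANKIB1. Beside ISG15, 1 of 10 neighbours was at least 2-fold higher: AGRN, which encodes the matrix proteoglycan agrin and directly follows ISG15, read 10.09 in the p53 array and 8.37 in the control array, a difference of 1.72. Beside USP18, 1 of 10 was, the pro-apoptotic gene BID at 1.29. No neighbour of ISG20 or IFI16 was 2-fold different. Over all 61 neighbours, 6 were at least 2-fold higher (9.84%, against 5.22% of all named genes) and none was lower (against 3.7%). The 6 include the overlapping ACTA2 and FAS, and PANK1 with MIR107 inside it, all near the IFIT genes. They may therefore not be 6 separate measurements, and nothing is read from the share.

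**Figure D4:**
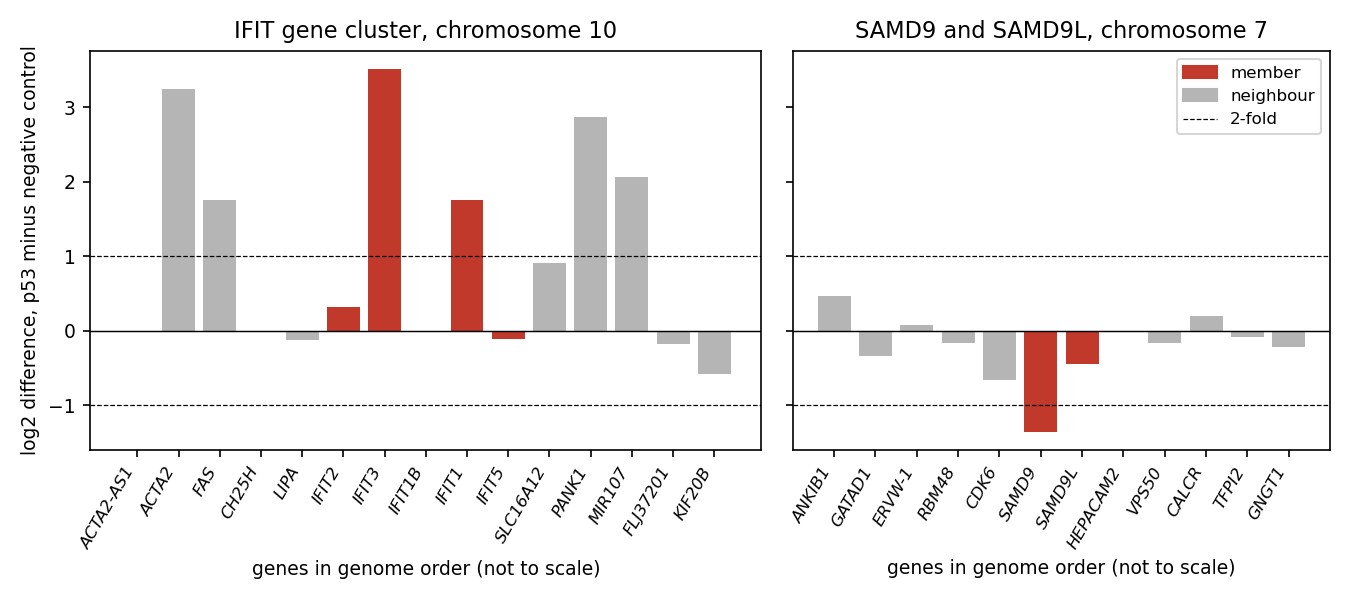
Difference in log2 intensity, p53 minus negative control, of the IFIT genes (left panel) and SAMD9 and SAMD9L (right panel) in red, with 5 named genes on each side and IFIT1B in grey, in genome order and not to scale. IFIT3, IFIT1, ACTA2, FAS, PANK1 and MIR107 rise above the 2-fold line on the left, and SAMD9 alone falls below it on the right.

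The promoter matches were then read against the differences. The matched genes covered the whole range of the members, with IFIT3 at 3.51, IFIT1 at 1.75, ISG15 at 1.58, ISG20 at 0.00, IFIT5 at -0.11 and SAMD9 at -1.35. IFI16, at 2.25, had no match in its windows. Among all named genes with a promoter in the table, 587 held a match, of which 39 lay at least 2-fold up with p53 (6.64%) and 15 at least 2-fold down (2.56%). Among the 13652 genes without a match, 745 lay at least 2-fold up (5.46%) and 551 at least 2-fold down (4.04%). No test was made of these shares. Since the members were chosen on these differences, nothing about the element is read from them.

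Facts of the 2 arrays as a whole bear on these values as follows. CDKN1A, the p21 gene and a p53 target, read 12.66 in the p53 array, against 9.18 in the negative control array, and MDM2, another target, read 13.59 in the p53 array and 10.87 in the control array, which goes with the labels. Of 7 epithelial markers, KRT8 and KRT18 lay above the median, and the other 5, EPCAM and CDH1 among them, lay below it and were listed as equal. Of 9 haematopoietic markers, 8 lay below the median in both arrays, and the log2 levels of all 9 ranged from 4.39 to 8.46 with p53 and from 4.39 to 7.68 in the control. The 1 above it was ITGAM, with a difference of 0.78. Of 7 fibroblast and endothelial markers, ACTA2 and COL1A1 lay above the median, and all but ACTA2 were listed as equal. The part of these 2 higher markers, ITGAM and ACTA2, in the differences described here was not tested.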

How the data were processed

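RNA isolated with Trizol was biotin-labelled by the standard Affymetrix procedure, per the labels, for 1 p53 array and 1 negative control array. The authors deposited RMA (robust multi-array average) log2 intensities for 33297 probe sets, per the submitters' processing notes. No software version, probe set definition or build is given in the sources used here. Values ran from 1.41 to 14.68, from which the log2 scale was inferred, and 35.9% of probe sets were equal in both arrays. That share is unusual for separately hybridised arrays, and neither the labels nor the values show its cause. The number of arrays limits the precision.

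Names came from GEO's platform annotation, updated by gene identifier to RefSeq (GRCh38.p14). It gave 1 symbol to 19460 probe sets, several to 1754 and none to 12083. Probe sets of the last 2 kinds were left out. For genes with several probe sets, the one with the highest mean was used. Listed genes without a probe set of their own were not analysed here. A gene was called at a 2-fold difference, a rule of size. All members were named, with list genes past 2-fold or else up to 4 with the largest differences above the median, and 5 neighbours per side. Some further list genes were named outside this rule, among them IFI6, IFITM3, MX1, OAS1, IFI44L, RSAD2, IFNB1, UBA7, PTPN6 and SOCS3. Members and lists were chosen with earlier results of these data known. Promoter sequences are from RefSeq (GRCh38.p14). Alternatives were thresholds of 1.5-fold and 3-fold, median centring, lowess (span 0.3), quantile normalization, an offset of 32, means over probe sets, a floor at the 25th percentile and filters at the median. The tools were numpy 2.4.6, pandas 2.3.3, statsmodels 0.14.6 and matplotlib 3.10.9 under Python 3.11.15.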

Additional observations from a re-analysis of the deposited data

Results flagged for a closer look

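A probe set that the comparisons did not use, because the annotation gives it to both USP18 and its pseudogene USP41P, was higher with p53. It stood at 9.71 with p53 and 8.71 in the negative control, a log2 difference of 0.999, whereas the probe set of USP18 alone gave 0.21. Which of the near-identical copies the shared probe set reads was not tested.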

How the results depend on the processing

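No paired analysis was possible because each group has 1 array. The counts of 4 higher and 1 lower gene were the same with centring, lowess, quantile normalization and an offset of 32. They also held with means over probe sets, a floor at the 25th percentile, a 1.5-fold threshold and a filter on the higher array. Centring and means over probe sets could not change them, since the median difference was 0.00 and the 10 genes had 10 probe sets. A 1.5-fold threshold could only add genes. That filter kept IFIT1, IFIT3 and IFI16 for their p53 values and SAMD9 for its control value. The other value of each lay below the median, so unchanged counts under this filter say little about these genes. At 3-fold, 3 genes were higher, as ISG15 fell short, and 0 were lower, as SAMD9 fell short. A filter on the mean of both arrays also left 0 lower genes, since it removed SAMD9, and 4 higher. Of 60 differences recomputed over 6 alternatives, 53 moved by less than the probe set spread of 0.104, 7 moved by more and 0 changed sign past 2-fold. The 53 include all 10 under centring and all 10 under means over probe sets, which could not move. The floor could move only IFIT3, the only member with a value under it. Of the 7, 6 came from the offset, which took IFIT3 to 2.93, IFI16 to 1.98, IFIT1 to 1.47, ISG15 to 1.45, SAMD9 to -1.07 and SAMD9L to -0.32. The floor took IFIT3 to 3.35. With 1 array per group, no variation between cultures or hybridisations is known, and signals near background limit the folds of IFIT3 and TRIM22.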

Other observations

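The genes whose pair of log2 values lay nearest to that of IFIT3, by Euclidean distance over the 2 arrays, were ANO4, a gene of the anoctamin family (distance 0.126), the small heat shock protein gene CRYAB (0.312) and the KIT ligand gene KITLG (0.313). ANO4 read 9.45 in the p53 array, against 5.83 in the negative control array. Nearest to SAMD9 were the zinc finger gene ZNF804A (0.056), the peroxisomal transporter gene ABCD2 (0.097) and the sulfatase gene ARSJ (0.157). ZNF804A read 6.24 in the p53 array and 7.66 in the control array. With 2 arrays this nearness is a description of 2 values per gene, and intensities of different probe sets are not levels on a shared scale.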
